A study of Mus musculus with 2 samples.

Results

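The genes of oxidative phosphorylation, the chain of 5 inner-membrane complexes that turns the energy of NADH and succinate into ATP, were examined for H3K4me3 in MEL cells. They were taken by name as the protein-coding genes of the mouse assembly GRCm38 whose symbol begins with Nduf followed by a, b, c, s or v, with Uqcr, with Cox4 to Cox8 or with Atp5, together with Sdha, Sdhb, Sdhc and Sdhd. The rule gave 96 genes out of 21887 on chromosomes 1 to 19, X and Y. Of these, 47 belong to complex I, 4 to complex II, 8 to complex III, 20 to complex IV and 17 to complex V. The name pattern also takes in 8 assembly factors of complex I, named Ndufaf, and 2 intronless copies of Ndufb4, named Ndufb4b and Ndufb4c. Ndufa4 and Ndufa4l2 carry a complex I name but are counted with complex IV, where the Ndufa4 protein is now placed.

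MEL is an immortalised mouse erythroleukaemia line, derived from red cell precursors, which DMSO is known to drive towards maturation. The series holds 1 group of 2 samples, both MEL cells exposed to 2% DMSO over 5 days and precipitated with an antibody against H3K4me3, the trimethylation of histone H3 at lysine 4 which is found around the starts of genes that are active or poised for activity. The labels number the samples as biological replicates 1 and 2 but give both the same biosample record, and the SDs below (n = 2) measure the spread between these 2 sets of peaks. No effect of DMSO can be read from any value below, since cells without it were not analysed here. The strain is given as MEL itself, and a single line is the only source of cells.

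Most subunits of these complexes are encoded in the nucleus, and a small number, among them part of the catalytic core of complexes I and IV, on mitochondrial DNA. Complex I passes electrons from NADH to coenzyme Q, complex II does so from succinate, complex III passes them on to cytochrome c and complex IV to oxygen. The protons pumped on the way drive complex V, the ATP synthase. Several subunits of complex IV exist as a ubiquitous form and a form made in muscle, lung or testis. Red cell precursors have mitochondria, which also carry out steps of heme synthesis, and lose them in the last step of their maturation.

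A gene was called marked when the 1000 bp on either side of its 5' end overlapped a deposited peak of replicate 1 and a deposited peak of replicate 2. The strongest of these peaks gives the enrichment value of the gene, which is the deposited signal value and has no stated scale. Peaks at most 1000 bp apart were joined, and the widest stretch so formed is called the domain. Replicate 1 had 48026 peaks and replicate 2 had 46950, with median enrichment values of 5.51 and 5.31, and the sequencing depth is unknown because the sets hold no read counts. The libraries carried the erythroid markers: Sptb stood at 28.8 in replicate 1 and 26.7 in replicate 2, Klf1 at 20.7 and 21.3, and Alas2 at 20.9 and 15.0. All 6 erythroid markers were marked, with mean values from 4.24 to 27.7, and none of 6 muscle and 6 testis markers was. Cd3e and Alb, genes of T cells and liver, had no peak, and Spi1 had one in replicate 2 alone (3.56).

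Most genes of the chain were marked, while the median height of the strongest peak and the median domain width were near those of marked genes in general. Of 95 genes that could be measured, 86 (90.5%) were marked, against 47.1% of 21485 protein-coding genes and 46.9% of the others. Without assembly factors, gene copies and tissue forms, 75 of 78 (96.2%) were marked. The median enrichment value of the 86 was 13.1 (12.3 in replicate 1 and 14.1 in replicate 2), with the middle 50% from 11.5 to 14.9. Over all 10120 marked genes it was 13.2, with the middle 50% from 10.8 to 15.7. The median domain was 2278 bp wide, from 1869.9 to 2753 bp in the middle 50%, against 2257 bp (1702 to 3016 bp). Of the 86 genes, 41 were above the median value of marked genes and 44 above their median width.

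**Figure D1:**
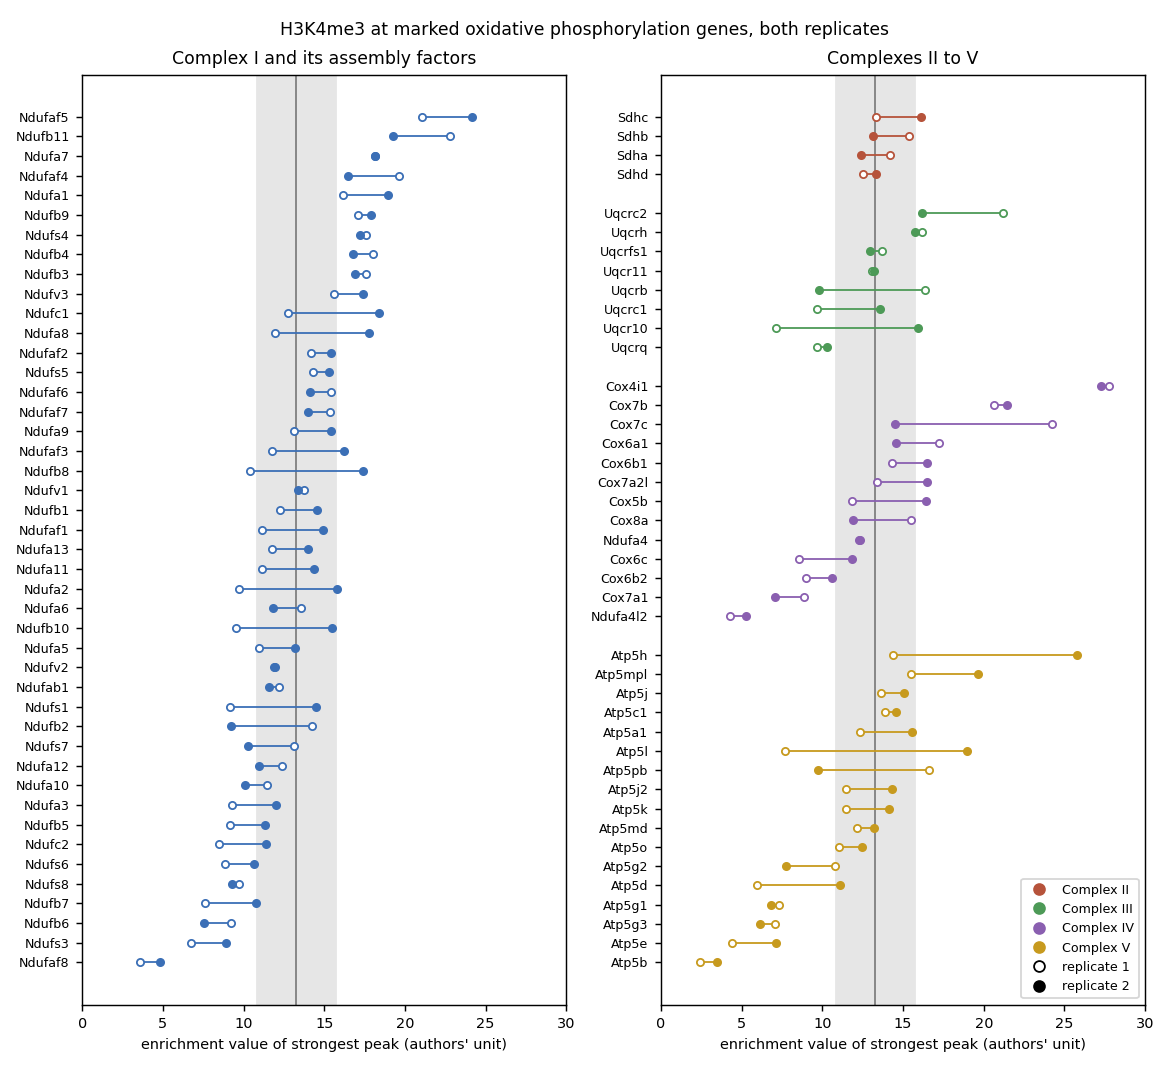
Enrichment value of the strongest peak within 1000 bp of the 5' end (x axis, the authors' unit) for each of the 86 marked genes, by complex. Open circles are replicate 1, filled circles replicate 2, the grey line is the median of all 10120 marked genes (13.2) and the grey band their middle 50% (10.8 to 15.7). Cox4i1 lies farthest to the right (27.8 and 27.3) and Atp5b farthest to the left (2.42 and 3.47).

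In complex I, the entry point of electrons from NADH, 44 of 46 measured genes were marked, with a median value of 13.0 and a median domain of 2195 bp. All 30 accessory subunits, which surround the catalytic core, were marked, at mean values from 8.38 to 21.0 around a median of 12.8. Ndufb11 stood at 22.8 in replicate 1 and 19.3 in replicate 2, Ndufa7 at 18.1 and 18.2, and Ndufa1 at 16.1 and 19.0. All of these lay above the middle 50% of marked genes in both replicates. The lowest accessory subunit was Ndufb6, at 9.21 and 7.56. The domain of Ndufb1 was the widest of the whole set (6806 ± 91.2 bp, SD, n = 2), and that of Ndufb10 followed (5449.5 ± 144 bp). Ndufb7 had a narrow one of 1166 ± 154 bp.

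The marked core subunits of complex I, which hold the flavin, the iron-sulfur clusters and the coenzyme Q site, had a median value of 11.8, and 1 of them, Ndufv1, had a mean above the median of marked genes. Ndufv1, which binds NADH and the flavin, stood at 13.7 in replicate 1 and 13.4 in replicate 2. Ndufv2 had 11.9 in both replicates, and Ndufs3 had the lowest values, 6.77 and 8.94. The widest gap between replicates among them was that of Ndufs1, at 9.19 and 14.5.

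The 8 assembly factors of complex I, which help to build it but do not stay in it, were all marked, with a median value of 14.7. Their means ran from 4.21 to 22.6. Ndufaf5, which modifies a core subunit during assembly, stood at 21.0 in replicate 1 and 24.1 in replicate 2, and Ndufaf4 at 19.6 and 16.5. Ndufaf8, which partners Ndufaf5, stood at 3.59 and 4.83, with a mean higher than that of 1.50% of marked genes, although its domain of 2145 ± 160 bp was of ordinary width. Ndufaf3 had one of the widest domains, 4749.5 ± 271 bp. Ndufb4, a regular accessory subunit, stood at 18.0 and 16.8, whereas its copy Ndufb4b had no peak nearer than 18574 bp from the gene in replicate 1 and 10445 bp in replicate 2. Ndufb4c has no strand in the tables used and was not measured, and its nearest peaks were 60106 and 59668 bp away.

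Complex II, or succinate dehydrogenase, is shared with the citric acid cycle and is encoded wholly in the nucleus, and its 4 genes were close to each other. Sdha, the flavin subunit, stood at 14.2 in replicate 1 and 12.4 in replicate 2. Sdhb, the iron-sulfur subunit, stood at 15.4 and 13.2. The membrane anchors followed, with Sdhc at 13.3 and 16.1 and Sdhd at 12.5 and 13.3. Their means, from 12.9 to 14.7, differed by less than the gap between replicates of Sdhc, and all 4 means lay within the middle 50% of marked genes. Their domains differed more, from 1722 ± 110 bp for Sdhb to 3653 ± 99.0 bp for Sdhd.

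All 8 genes of complex III under the name rule were marked, with a median value of 13.1 and a median domain of 2508 bp. Cyc1, the cytochrome c1 subunit of this complex, falls outside the rule and is counted with the electron carriers below. It was marked too, at 11.0 in replicate 1 and 12.9 in replicate 2. Uqcrfs1, the Rieske iron-sulfur protein, stood at 13.7 in replicate 1 and 13.0 in replicate 2. Uqcrc2, one of the large matrix subunits, was the highest at 21.2 and 16.2, and its partner Uqcrc1 had 9.64 and 13.6. The ranges of that pair did not overlap. Uqcrh, the hinge protein at the cytochrome c side, had a domain of 4726 ± 30.4 bp, among the 5 widest of the set. Uqcr10 stood at 7.11 and 15.9, the largest difference between replicates in this complex.

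In complex V, the synthase itself, all 17 genes were marked, with a median value of 12.8 and a median domain of 2695 bp. The 5 genes of the F1 head, where ATP is made, had a median value of 8.52. Of these, Atp5a1 and Atp5c1, the α and γ subunits, lay near the median of marked genes, at 12.3 in replicate 1 and 15.5 in replicate 2 and at 13.9 and 14.6. Atp5d, the δ subunit, stood at 5.93 and 11.1, and Atp5e, the ε subunit, at 4.37 and 7.15. Atp5b, the catalytic β subunit, had the lowest value of all 86 genes, 2.42 and 3.47.

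The mark of Atp5b was low, and its domain was not narrow. In replicate 1, 1 peak ran from 1204 to 336 bp upstream of the 5' end (2.42) and another from 46 to 1426 bp downstream (2.42), and replicate 2 had both at 3.33 and 3.47. The deposited −log10 q of its strongest peak was 10.8 in replicate 1 and 30.6 in replicate 2, against medians of 60.6 and 77.4 over the 86 genes. The domain, 2651 ± 28.3 bp, was wider than that of 65.1% of marked genes, while the mean value, 2.94 ± 0.74, was higher than that of 0.14% of them. In the pooled set the downstream peak had 2.93, close to the replicates. Ndufaf8 likewise had peaks on both sides of an uncovered start, with −log10 q values of 23.1 and 46.4 for the strongest. What sets the value of such peaks was not tested.

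The 12 genes of the membrane part and the stalk of complex V had a median value of 12.9. Atp5h, the d subunit of the stalk, was the highest at 14.4 in replicate 1 and 25.8 in replicate 2. Both values belong to a peak shared with Kctd2 that lies wholly upstream, 1435 to 424 bp and 1467 to 213 bp from the 5' end. The peak over the 5' end of Atp5h had 9.27 and 12.2. Atp5pb, the b subunit, was higher in replicate 1 instead, at 16.6 and 9.75. The 3 genes of the c ring, whose products differ only in the targeting sequence that is cut off, were all below the middle 50% of marked genes at this 5' end. Atp5g1, chosen after its values were seen, stood at 7.30 and 6.82, Atp5g2 at 10.8 and 7.74, and Atp5g3 at 7.06 and 6.14. For Atp5g3, a start in the RefSeq promoter table lies 1138 bp inside the gene, and there the values were 9.28 and 18.4, so the low value depends on the start. The same holds for Atp5d, whose table start 3577 bp inside the gene gave 11.3 and 14.0. Atp5b and Atp5e have no second start in that table. With the table starts added, the median of the F1 genes was 12.6 and that of the membrane and stalk genes 13.0, so the lower median of the F1 genes depends on the start of Atp5d. The inhibitor of the synthase, Atpif1, is outside the name rule and stood at 14.9 and 13.4 with a wide domain of 6270 ± 342 bp.

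Complex IV, cytochrome c oxidase, had both the highest value and most of the unmarked genes. Of its 20 genes, 13 were marked, with a median value of 14.1 and a median domain of 1950 bp. Of 11 ubiquitous subunits, 9 were marked, with a median value of 15.4 and a range of 10.2 to 27.5. Cox4i1, the ubiquitous form of subunit 4 that binds adenine nucleotides, stood at 27.8 in replicate 1 and 27.3 in replicate 2 (mean 27.5 ± 0.36), higher than 99.9% of marked genes. This value belongs to a peak lying 1586 to 152 bp upstream, towards Emc8 on the other strand, and the peak on the gene side, which begins 68 and 6 bp downstream of the 5' end, had 11.8 and 16.4. Cox7b stood at 20.6 and 21.4 and shared its peak with no other gene. Cox7c stood at 24.3 and 14.5. Cox7a2l, which joins complexes III and IV into supercomplexes, had 13.4 and 16.5.

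The 2 ubiquitous genes that were unmarked, Cox5a and Cox7a2, both had strong peaks inside the gene in both replicates. Cox5a (chromosome 9, 57517328 to 57532427) has a start in the promoter table at 57521232, which lies 3904 bp inside the gene, and there it stood at 17.9 in replicate 1 and 14.6 in replicate 2. Cox7a2 (chromosome 9, 79755241 to 79771422, read from the higher coordinate) has one at 79759853, 11569 bp inside, with 12.4 and 12.7. Read at these starts, 88 genes of the chain were marked, against 49.5% of all genes read in the same way, and all 11 ubiquitous subunits of complex IV were among them. These starts were chosen after the data were seen.

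Of the 8 tissue forms of complex IV, 3 (37.5%) were marked, a share near the 47.1% of all protein-coding genes. The 3 had a median value of 7.96 and a median domain of 1227 bp. All 3 lay below the median of marked genes in value and in width. Ndufa4l2, known to be induced in low oxygen, is counted among these forms although no tissue is given for it here. Cox6a2 and Cox8b, made in heart and skeletal muscle, Cox7b2 and Cox8c, made in testis, and Cox4i2, made in lung, had no peak of either replicate within 1000 bp. The nearest peaks to Cox7b2 were 272003 and 272060 bp away, to Cox6a2 30611 and 30699 bp, to Cox8c 19908 and 19888 bp, and to Cox8b 15617 and 15748 bp. These distances are from the nearer end of the gene and not from its 5' end. Only Cox4i2 had a peak close to the gene, with 4.16 in replicate 1 and 6.64 in replicate 2. It lay 1101 and 1032 bp beyond the 3' end, on the far side of the gene from its start.

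**Figure D2:**
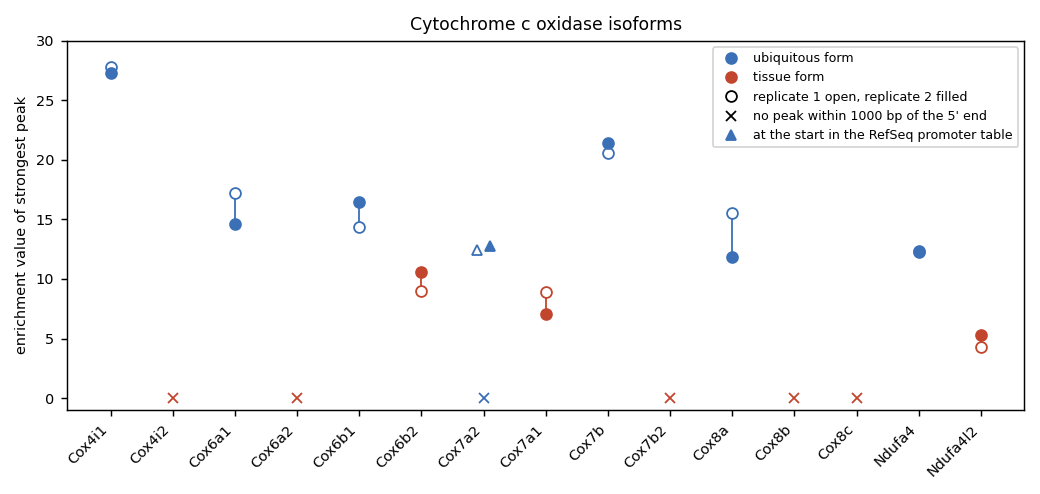
Enrichment value of the strongest peak (y axis) for the ubiquitous forms (blue) and tissue forms (red) of complex IV, side by side, with open symbols for replicate 1 and filled ones for replicate 2. Crosses at 0 mark genes with no peak within 1000 bp of the 5' end, and triangles give Cox7a2 at the start of the promoter table (12.4 and 12.7). Only Cox6b2, Cox7a1 and Ndufa4l2 of the tissue forms carry a value, and each lies below its ubiquitous partner.

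Where both forms of a pair had the mark, the tissue form was lower in both replicates. Cox6b1 stood at 14.3 in replicate 1 and 16.5 in replicate 2, against 8.96 and 10.6 for Cox6b2, the testis form, a ratio of 1.60 and 1.56. Ndufa4 stood at 12.3 and 12.2, against 4.28 and 5.28 for Ndufa4l2, which is known to be induced in low oxygen, a ratio of 2.88 and 2.32. The replicates of the forms did not overlap in either pair. The value of Ndufa4 in replicate 1 comes from a peak shared with Phf14, 1268 to 427 bp upstream, and the peak over its 5' end had 6.49 in replicate 1 and 12.2 in replicate 2, still above Ndufa4l2. Width did not follow in the same way, since Ndufa4 had the wider domain (2636 and 3040 bp, against 1109 and 1345 bp), but Cox6b1 the narrower one (1401 and 1441 bp, against 1811 and 2331 bp). Cox7a1, the muscle form of subunit 7a, stood at 8.89 and 7.04 and had the narrowest domain of the set, 615 and 806 bp. Cox7a2 at its table start had 12.4 and 12.7 over 2261 and 2235 bp. Of the ubiquitous forms whose tissue partner was unmarked, Cox6a1 had 17.2 and 14.6, and Cox8a 15.5 and 11.9.

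The promoters of 3 such pairs are printed to set a ubiquitous form, marked at the start shown, beside its tissue form, from the RefSeq promoter table of GRCm38.p6. Each runs 5' to 3' on the strand of the gene, from 250 bases before the table start to 30 after it, and capitals mark matches on either strand to the motifs named further on. The promoter of Cox7a2 (chr9:79759824-79760103, minus strand) held 18 CpG, and that of Cox7a1 (chr7:30183921-30184200, plus strand) held 6 and GATA box matches, AGATAA, on both strands. Cox8a (chr19:7217587-7217866, minus strand) held 17 CpG and an ETS match. Cox8b (chr7:140900417-140900696, minus strand) held 1 CpG and a TATA box match. In the third pair the count went the other way, with 5 CpG for the strongly marked Cox7b (chrX:106015450-106015729, plus strand) and 10 for the unmarked Cox7b2 (chr5:71548176-71548455, minus strand).
Cox7a2: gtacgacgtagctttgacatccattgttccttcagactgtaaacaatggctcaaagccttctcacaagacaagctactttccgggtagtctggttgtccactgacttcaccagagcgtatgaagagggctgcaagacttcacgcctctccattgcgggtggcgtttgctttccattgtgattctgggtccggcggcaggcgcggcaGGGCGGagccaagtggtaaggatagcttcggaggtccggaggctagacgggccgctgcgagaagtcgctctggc
Cox7a1: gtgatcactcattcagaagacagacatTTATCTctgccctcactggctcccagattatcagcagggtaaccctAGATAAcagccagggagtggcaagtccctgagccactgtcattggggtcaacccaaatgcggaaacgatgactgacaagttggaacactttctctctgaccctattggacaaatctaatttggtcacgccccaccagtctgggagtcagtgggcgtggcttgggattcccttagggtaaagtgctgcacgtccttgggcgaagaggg
Cox8a: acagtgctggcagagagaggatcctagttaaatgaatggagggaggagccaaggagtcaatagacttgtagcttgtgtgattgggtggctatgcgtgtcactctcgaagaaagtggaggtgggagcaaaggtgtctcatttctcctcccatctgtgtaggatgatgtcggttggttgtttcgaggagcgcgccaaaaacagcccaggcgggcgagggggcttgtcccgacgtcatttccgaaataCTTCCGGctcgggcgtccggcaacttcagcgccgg
Cox8b: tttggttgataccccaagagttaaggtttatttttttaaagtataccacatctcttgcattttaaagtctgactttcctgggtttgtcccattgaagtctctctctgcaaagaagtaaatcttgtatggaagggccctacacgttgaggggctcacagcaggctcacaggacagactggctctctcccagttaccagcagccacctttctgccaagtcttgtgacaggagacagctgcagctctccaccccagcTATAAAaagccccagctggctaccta
Cox7b: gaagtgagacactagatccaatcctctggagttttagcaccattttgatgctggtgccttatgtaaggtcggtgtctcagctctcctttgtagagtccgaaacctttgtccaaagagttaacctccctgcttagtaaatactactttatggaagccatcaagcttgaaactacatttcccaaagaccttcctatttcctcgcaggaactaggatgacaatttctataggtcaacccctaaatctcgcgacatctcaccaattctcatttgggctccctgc
Cox7b2: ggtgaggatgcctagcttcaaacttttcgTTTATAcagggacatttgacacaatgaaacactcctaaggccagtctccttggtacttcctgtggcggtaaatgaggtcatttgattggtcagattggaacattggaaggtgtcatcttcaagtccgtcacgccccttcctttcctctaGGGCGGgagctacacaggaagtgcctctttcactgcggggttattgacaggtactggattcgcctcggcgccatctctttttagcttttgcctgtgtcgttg

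The promoters were then searched for 6 short motifs on both strands, in the 300-base windows of the promoter table, using 1 window a gene. Of the marked genes of the chain, 73 had a window. The motif of NRF1, a regulator of genes for mitochondrial proteins, GCGCANGC, was in 32.9% of them, against 22.4% of 8307 marked genes and 13.5% of 17492 genes. The motif of YY1, AAGATGG, was in 15.1%, against 7.73% and 6.35%. The ETS motif CCGGAAG, which GABP binds, was in 24.7%, against 20.9% and 11.9%. The GC box GGGCGG went the other way, in 43.8% against 67.4% of marked genes and 46.3% of all. The erythroid GATA box AGATAA was in 8.22%, against 6.36% and 9.94%, and the TATA box TATAAA in 8.22%, against 6.51% and 13.3%. The motifs do not contain one another, but NRF1 matches on opposite strands can overlap. The median was 20 CpG a window for the marked genes of the chain, 22 for all marked genes and 4 for unmarked ones. A match describes these letters only, and binding was not measured.

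The printed stretch is shorter than the windows searched above, so it can miss matches counted there. The same count was not made over all marked genes. Whether the counts below are particular to the chain was therefore not tested. In this stretch, 30 of the 73 genes held 1 of the NRF1, ETS and YY1 motifs. A further 9 held 2 of them and none held all. Cox6a1 and Atp5k, which had the most matches among those holding 2 of them, and Atp5h, 1 of the 7 others, are shown beside Atp5b, which had the lowest value and held GC box matches alone. Cox6a1 (chr5:115348929-115349208, minus strand) held 3 NRF1 matches and 1 ETS match, Atp5k (chr5:108434370-108434649, minus strand) 2 and 1, and Atp5h (chr11:115419890-115420169, minus strand) 1 and 1. In Cox6a1 and Atp5k, the run GCGCATGCGC counts as a match on each strand. Atp5b lies at chr10:128083057-128083336 on the plus strand. These genes differed in value: Cox6a1 had 17.2 in replicate 1 and 14.6 in replicate 2, Atp5k 11.5 and 14.1, and Atp5h 14.4 and 25.8. The values of Atp5h belong to the upstream peak that it shares with Kctd2.
Cox6a1: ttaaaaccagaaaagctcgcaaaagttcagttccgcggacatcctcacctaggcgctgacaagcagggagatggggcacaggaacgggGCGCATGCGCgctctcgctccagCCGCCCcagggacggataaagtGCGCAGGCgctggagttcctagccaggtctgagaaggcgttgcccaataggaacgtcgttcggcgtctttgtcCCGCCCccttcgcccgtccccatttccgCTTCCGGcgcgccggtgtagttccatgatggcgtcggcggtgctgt
Atp5k: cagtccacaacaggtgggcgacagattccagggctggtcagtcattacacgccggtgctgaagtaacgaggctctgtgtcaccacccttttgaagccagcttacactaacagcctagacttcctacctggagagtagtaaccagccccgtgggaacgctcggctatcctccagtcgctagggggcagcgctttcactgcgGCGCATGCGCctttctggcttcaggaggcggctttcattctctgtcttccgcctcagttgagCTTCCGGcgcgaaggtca
Atp5h: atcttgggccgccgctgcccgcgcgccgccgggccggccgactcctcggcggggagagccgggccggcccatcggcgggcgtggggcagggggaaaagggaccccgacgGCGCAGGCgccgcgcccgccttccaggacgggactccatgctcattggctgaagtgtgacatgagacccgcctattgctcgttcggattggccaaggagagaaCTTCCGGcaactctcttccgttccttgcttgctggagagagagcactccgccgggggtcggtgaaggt
Atp5b: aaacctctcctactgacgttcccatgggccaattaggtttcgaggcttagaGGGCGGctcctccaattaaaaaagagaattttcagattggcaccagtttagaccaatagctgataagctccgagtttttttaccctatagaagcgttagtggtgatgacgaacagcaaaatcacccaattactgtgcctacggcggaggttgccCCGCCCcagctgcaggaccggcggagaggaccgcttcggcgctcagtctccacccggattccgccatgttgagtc

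The strongest peak was often shared with a gene read in the opposite direction. In 35 of 86 genes (40.7%) it also lay within 1000 bp of the 5' end of another protein-coding gene, against 22.5% of marked genes, and all 35 had a partner on the other strand, as did 2200 of the 2277 marked genes of this kind. The 5' ends of the pairs were 65 bp apart at the median and from 9 to 966 bp apart. Complex I had 20 of 44 genes of this kind, complex II 3 of 4, complex III 4 of 8, complex IV 2 of 13 and complex V 6 of 17. A peak shared in this way cannot be assigned to either gene.

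Some partners serve the mitochondrion or the making of protein. Sdhd starts 52 bp from Timm8b, a helper of mitochondrial protein import. Ndufs6 starts 21 bp from Mrpl36 and Ndufb5 302 bp from Mrpl47, both proteins of the mitochondrial ribosome. Ndufa7 starts 10 bp from Rps28, a protein of the cytosolic ribosome, and Ndufs1 9 bp from Eef1b2, a translation elongation factor. Atp5j starts 966 bp from Gabpa, the DNA-binding subunit of GABP, and both took the same peak, with 13.6 in replicate 1 and 15.0 in replicate 2. The genes with the highest values include Ndufaf5, which faces Esf1, Ndufb11, which faces Rbm10, and Atp5h, which faces Kctd2. These partners were chosen after their values were seen.

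Sharing went with width more than with height. A longer peak can lie near more 5' ends, so sharing and width are partly tied by definition. The 35 sharing genes had a median domain of 2616 bp and a median value of 13.9, and the 51 others had 2029.5 bp and 12.8. Among all marked genes the same split gave 2605 and 2134.5 bp, and 13.8 and 13.1, so the genes of the chain followed the general pattern. Of the 5 widest domains, those of Ndufb1 (facing Cpsf2), Ndufaf3 (Dalrd3) and Uqcrh (Lrrc41) were shared, and those of Ndufb10 and Atp5d (4796 ± 69.3 bp) were not. The 5 narrowest, Cox7a1, Ndufb7, Ndufa4l2, Atp5g2 (1305 ± 330 bp) and Atp5e (1341 ± 139 bp), were all unshared.

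**Figure D3:**
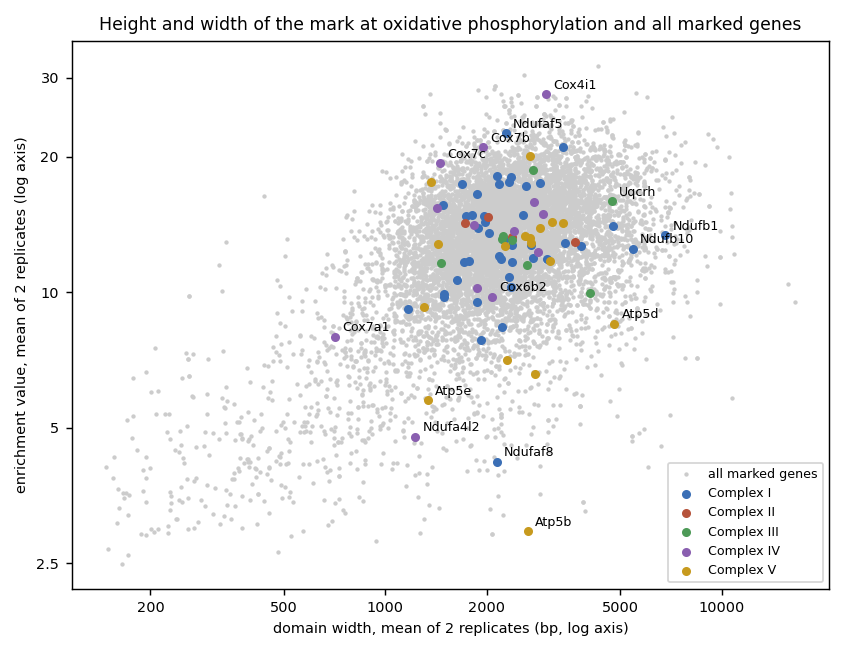
Domain width (x axis, bp, log scale) against enrichment value (y axis, the authors' unit, log scale), each the mean of 2 replicates, for all 10120 marked genes (grey) and the 86 marked genes of the chain (coloured by complex). Most coloured points lie inside the grey cloud, Cox4i1 (27.5) near its top, Atp5b (2.94) near its bottom at an ordinary width of 2651 bp, and Cox7a1 at the narrow side (710.5 bp).

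At most genes the mark lay on both sides of the start. Peaks covered a median of 766 bp of the 1000 bp upstream and 968 bp of the 1000 bp downstream, against 657.5 and 917.5 bp over all marked genes. More bases were covered downstream in 72 of 86 genes (83.7%), against 77.7%. Domains ran at the median from 984 bp before to 1256 bp after the 5' end, and over all marked genes from 795 bp before to 1348 bp after it. The 5' end itself was inside a peak of both replicates in 38 genes (44.2%, against 42.6%). In 28 genes (32.6%, against 27.2%) it was uncovered in both with peaks on both sides. Cox7b was of the latter kind in replicate 1, with peaks of 10.9 upstream and 20.6 downstream of a gap at the start.

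Averaged over the genes and both replicates, peak coverage was 86.6% at 350 bp upstream, 54.7% at the 5' end and 99.4% at 150 bp downstream. Over all marked genes it was 78.0%, 53.5% and 84.8% at those places. The near-equal averages at the 5' end join opposite differences. Coverage there was 52.33% against 44.77% in replicate 1 and 56.98% against 62.14% in replicate 2. Averaged again over both replicates, coverage at 1000 bp upstream was 45.3%, against 34.5%, and at 1000 bp downstream 82.0%, against 72.4%. Just before the start, at 50 bp upstream, it was 43.0%, against 49.1%. Farther out the order turned, with 11.6% against 14.2% at 1500 bp upstream and 19.8% against 37.5% at 1500 bp downstream. The 5' end is a single outermost one per gene in both sets.

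**Figure D4:**
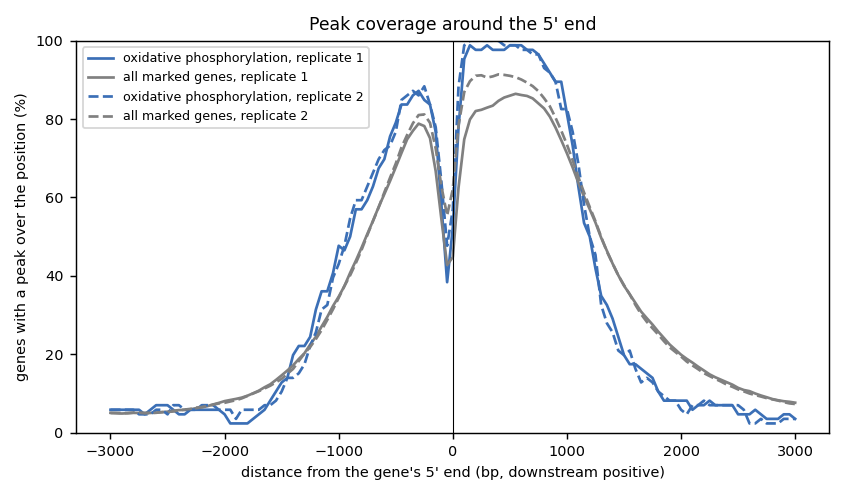
Percentage of genes with a peak over each position (y axis) by distance from the 5' end (x axis, bp, downstream positive), for the 86 marked genes of the chain (blue) and all 10120 marked genes (grey), with solid lines for replicate 1 and dashed lines for replicate 2. Both sets dip at the 5' end, and the blue lines reach 99.4% (mean of the replicates) at 150 bp downstream, where the grey ones stand at 84.8%, and fall below them farther out (19.8% and 37.5% at 1500 bp downstream).

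The replicates were closer in width than in height. Across the 86 genes, which share the same 2 libraries, Pearson's correlation of the replicates was 0.749 for log2 enrichment values and 0.942 for log2 widths, as a description, and over 10120 marked genes it was 0.635 and 0.917. Spearman's correlation was 0.598 and 0.917 for the genes of the chain. Height and width were nearly unrelated among them, with a Spearman correlation of 0.134, against 0.356 over all marked genes. The value was higher in replicate 2 in 54 of 86 genes (62.8%), near the 64.1% of all marked genes. It differed more than 2-fold in 2 genes (2.33%, against 4.5%).

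Those 2 were Atp5l, the g subunit of complex V, and Uqcr10, and in both a single peak of replicate 1 was divided in replicate 2. Atp5l had 1 peak from 1062 bp upstream to 1550 bp downstream in replicate 1 (7.65). In replicate 2 it had 3 peaks, the strongest from 181 bp upstream to 1398 bp downstream (19.0). Its domain was nevertheless 2613 bp and 2604 bp wide. Uqcr10 had 1 peak in replicate 1 (7.11) and 2 in replicate 2, of 15.9 and 10.5, over domains of 2649 and 2638 bp. The pooled set gave a single peak for each, with 9.66 for Atp5l and 10.05 for Uqcr10, between the replicates. Over all genes of the chain, 60 had the same number of peaks in both replicates and a median difference of 1.19-fold, and 26 had different numbers and a median difference of 1.25-fold. So the number of peaks went with large differences in these genes but little in general, and its part in them was not tested.

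**Figure D5:**
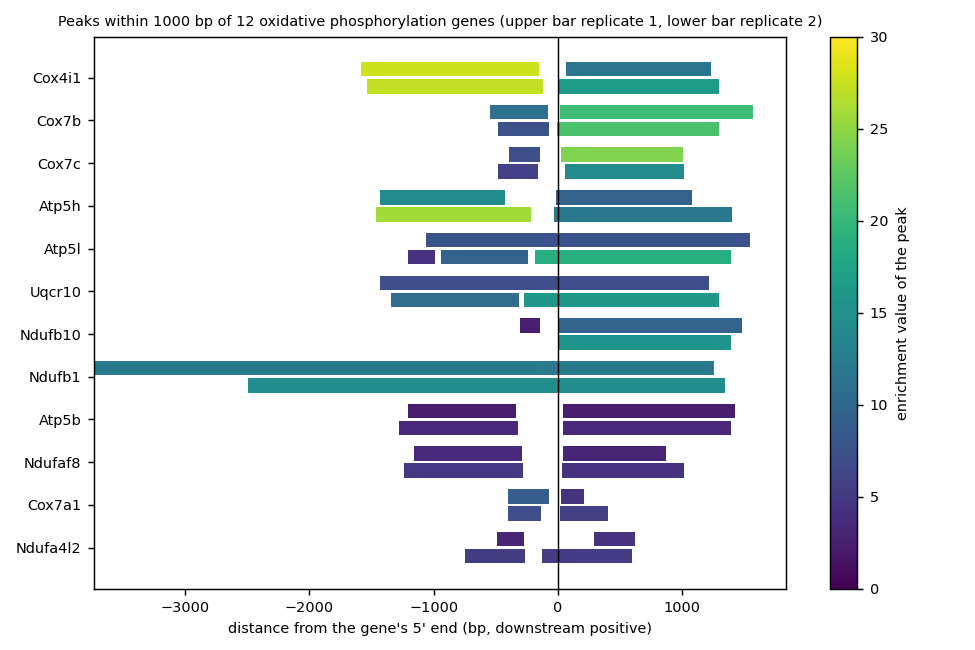
Extent of each peak within 1000 bp of the 5' end (x axis, distance from the 5' end in bp, downstream positive) for 12 genes of the chain, with replicate 1 as the upper and replicate 2 as the lower bar, coloured by enrichment value from 0 (dark) to 30 (yellow). Atp5l and Uqcr10 have 1 bar in replicate 1 and 3 and 2 in replicate 2. Atp5b and Ndufaf8 have wide dark bars on both sides of the start, and the bright bar of Cox4i1 lies upstream of it.

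The other genes that feed, build or regulate the chain were marked in 85.7% to 97.4% of cases, list by list. Over all protein-coding genes the share was 47.1%, and the median value of all marked genes was 13.2. Of 19 genes for electron carriers and coenzyme Q synthesis, 17 were marked, with a median value of 13.4, led by Pdss1, an enzyme of the coenzyme Q side chain (16.3 in replicate 1 and 24.8 in replicate 2), and Cycs, somatic cytochrome c (24.0 and 15.9). Cyct, the testis form of cytochrome c, was unmarked, and so was Pdss2. Of 39 assembly factors outside the name rule, 38 were marked, with a median of 12.8, led by Sdhaf2, which adds the flavin to Sdha (20.1 and 20.6), and Timmdc1, a factor of complex I (18.8 and 16.1). Atpaf2, a factor of the ATP synthase, was unmarked.

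Of 19 genes of the citric acid cycle and pyruvate dehydrogenase, 17 were marked, with a median value of 13.4. Pdha1, the X-linked E1α subunit of pyruvate dehydrogenase, stood at 19.4 in replicate 1 and 19.8 in replicate 2, and Pdhx at 19.0 and 17.0. Its testis copy Pdha2 was unmarked, as was Idh2. Of 14 regulators of mitochondrial biogenesis, 12 were marked, with a median of 15.5. The highest was Mterf1a, a mitochondrial transcription termination factor (16.3 and 28.0), followed by Nrf1 (20.1 and 18.8). Gabpb1, a partner of Gabpa, and Ppargc1a, a coactivator known from muscle and brown fat, were unmarked at the 5' end. All of these unmarked genes were read at a single outermost 5' end, like those of the chain.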

How the data were processed

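H3K4me3 was profiled in 2 samples of 1 group of MEL cells. The authors deposited 4 peak sets on mm10: 1 per replicate, 1 pooled and 1 replicated. Per the notes deposited beside them, the replicated set was made out of the 3 others, and each set draws on 2 further files as well. An older set lies on mm9. Fragments were 150 to 350 bp, per the labels. Aligner, caller and threshold are not given in the sources used here. For every peak, the authors deposited a signal value of unstated scale, called the enrichment value, and a p-value and q-value on a −log10 scale. Means and ratios of the replicates take both sets to be on 1 scale.

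The 5' end of a gene was its outermost end in a RefSeq gene table of GRCm38.p6, the assembly behind mm10. Strand came from the RefSeq promoter table for 17492 genes, and from the GENCODE M1 annotation for 3606 by symbol and 387 by synonym. The other 402 genes have none. Where both sources gave a strand (16340 genes), 47 differed. Of the 96 genes, 78 have a promoter entry. Those without one include Ndufs1, Sdhc, Cox4i2, Ndufaf6, Uqcrc2, Cox6a2, Cox4i1, Ndufa4l2, Uqcrq, Cox8c, Atp5mpl, Uqcrb, Cox6c, Ndufb9, Ndufb4c, Ndufa2 and Atp5a1. Exons and introns were not annotated. Python 3.11.15, pandas 2.3.3 and NumPy 2.4.6 were used, and the overlap code was tested on simulated peaks.

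With 1 group and no counts there is no test, and genes are not replicates, so no p-value is given. The genes and lists were chosen with earlier results of these data known. Named by rule are the unmarked genes, the 10 highest and 5 lowest values, the 5 widest, 5 narrowest and 5 least even between replicates, complex II, the isoform pairs, Atpif1, and per list the unmarked genes and the 2 highest. Others were named after their values were seen, and 1 gene that falls under the rule is not reported here. Alternatives were windows of 500 and 2000 bp, peaks with a −log10 q of at least 2 or 5, the 20000 peaks of highest −log10 p, the other peak sets, each replicate alone, other gaps and measures of width, and smaller gene sets. Starts of the promoter table were added after seeing the data.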

Additional observations from a re-analysis of the deposited data

How the results depend on the processing

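The count of 86 marked genes stayed between 83 and 88 under every window, threshold and peak set tried on mm10, and was 86 without replicate 1 and 87 without replicate 2. With the 20000 peaks of highest −log10 p, Atp5d, Ndufa4l2 and Atp5b were lost. The starts of the promoter table, chosen after seeing the data, added Cox5a and Cox7a2. The older mm9 set holds 15810 peaks and was read on another assembly, NCBIM37. It marked 85 of 93 genes (91.4%, against 44.7% of all genes), without Cox7a1, Atp5b and Ndufb8 and with Cox5a and Cox7a2 among those gained. Peaks and assembly changed together there, so their parts in these gains and losses cannot be told apart. Leaving out the genes that share their strongest peak left 51 of 60 marked (85%). Sharing is defined for marked genes only, so this step could only lower the share. Leaving out assembly factors and copies left 78 of 86 marked (90.7%).

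The median enrichment value, 13.1, ranged from 12.3 without replicate 2 to 14.1 without replicate 1, where all marked genes had 12.3 and 13.6. In the pooled set it was 12.6, against 13.1. With the peak nearest the 5' end in place of the strongest, it was 12.9, against 11.8. By that measure the genes of the chain stood higher than marked genes in general. The median domain width, 2278 bp, was 2200.5 bp with a −log10 q of at least 5, 2109 bp with the 20000 strongest peaks, 2333 bp in the pooled set and 2029.5 bp without sharing genes. It was 1374 bp with no gap joined, 2372 bp with gaps of 3000 bp and 1737 bp as covered bases in the window, where all marked genes had 1413, 2447.5 and 1525 bp. Without replicate 1 it was 2259.5 bp and without replicate 2 it was 2326 bp. Of the tissue forms, 3 were marked in each mm10 setting except the 20000 strongest peaks, with 2. The 5' end was covered in 38 genes by both replicates and in 55 in the pooled set (63.22%, against 59.06% of all marked genes). Read in replicate 2 alone, it was covered in 49 genes (56.98%, against 61.23%). Read in replicate 1 alone, it was covered in 45 (51.72%, against 44.53%). The difference from marked genes in general thus changed direction between the replicates. No paired analysis was possible because the series holds 1 group. Depth is unknown, so a gene without a peak is not shown to lack the mark.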

Other observations

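Besides the protein-coding genes, the RefSeq table lists 19 pseudogenes whose names fit the same pattern, copies of genes of the chain that are no longer thought to make the protein. None of the 19 had a peak of both replicates over its span. Of these, 1, Atp5l2-ps on chromosome 11 (97768017 to 97768468), had one within 1000 bp, with 7.49 in replicate 1 and 9.37 in replicate 2. No share over all pseudogenes is given beside these counts, so whether they are particular to these copies cannot be told. The 13 protein-coding genes on mitochondrial DNA, which encode further subunits of complexes I, III, IV and V, are outside the name rule. The peak sets of both replicates held 0 peaks there. Mitochondrial DNA is not packaged in histones, so this count could not have shown the mark, and no conclusion is drawn from it.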
